A study of Homo sapiens with 3 samples.

Results

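NF-kB is a family of dimeric transcription factors that inhibitors of the IkB family hold in the cytoplasm until IkB kinase marks those inhibitors for destruction. Freed dimers enter the nucleus and switch on inflammatory and survival genes, among them the genes of their own inhibitors, which closes a negative feedback loop. In the intestinal epithelium the pathway is known for driving chemokines that attract neutrophils. The 10 genes described here are the subunit genes NFKB1, NFKB2, RELA and RELB, the inhibitor genes NFKBIA and NFKBIE, the feedback deubiquitinase gene TNFAIP3, the ubiquitin ligase gene BIRC3, and the chemokine genes CXCL1 and CXCL2. Members were all probes of the array whose single gene symbol was one of these names, which gave 12 probes of 24658 with a single symbol, and 10 genes of 18255. CXCL1 and NFKB2 had 2 probes each and the other 8 genes had 1.

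The samples were 3 cultures of the established colorectal cancer line SW48, of human origin, each in a group of its own. The first carried the empty expression vector pcDNA3.1, the second a plasmid for overexpression of the RNA helicase DDX3, and the third the same plasmid plus one that knocks down YAP1, a coactivator of transcription under Hippo control. Per the labels, all were stable cells kept under G418 for 4 weeks, and the sources used here do not say whether they were clones or mixed populations. Total RNA was labelled with Cy5 and hybridised to 1-colour arrays. Groups of 1 sample have no spread, so no group was tested against another, overlap between groups cannot be judged, and each difference is one between single libraries. The following differences of log2 intensity were taken. The DDX3 difference is the DDX3-labelled minus the vector library, the knockdown difference is the DDX3+YAPsi-labelled minus the DDX3-labelled library, and the combined difference is the DDX3+YAPsi-labelled minus the vector library. The knockdown difference addresses what targeting YAP1 does in cells that also carry the DDX3 plasmid. In such bulk samples, fewer cells of a type and less RNA per cell cannot be told apart.

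After scaling, the targeted genes did not bear out the labels. DDX3X, the helicase gene, had 2 probes. One read 1975, 879 and 813 in the vector, DDX3-labelled and DDX3+YAPsi-labelled libraries (scaled intensity) and the other 49549, 57967 and 48085. The probes disagreed on the direction of the DDX3 difference (-1.17 and 0.23), and both read lowest in the DDX3+YAPsi-labelled library. Where they lie relative to the plasmid insert was not analysed here. YAP1 had 18298, 20279 and 20768 in the same order, and so was not lower under the knockdown label after scaling. As deposited it had 22713, 21983 and 15434, in libraries whose medians over all probes were 469, 414 and 305. Every direction given here rests on those labels. Of 8 colon epithelial markers on the array, 6 reached the floor (the median of all probes of a library) in all 3 libraries, including EPCAM, KRT19 and CDX2, while VIL1 lay below it in all. Of 8 leukocyte markers 5 lay below it in all libraries, PTPRC among them, and 2 (CD14 and CD68) reached it in all. Of 9 fibroblast and endothelial markers 6 lay below it in all and only COL1A1 reached it in all. The summed scaled intensity of the leukocyte markers was 3064, 2941 and 3318 in the vector library and the DDX3- and DDX3+YAPsi-labelled libraries, with CD14 (1188, 1007 and 1533) and CD68 (942, 851 and 663) as its brightest members, which ran in opposite directions in the last library. The sum of the fibroblast and endothelial markers was 3758, 3426 and 4382, and that of the epithelial markers 198270, 196304 and 187426. The part of these shifts in the values of the members was not tested.

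Most members with a promoter window share a sequence motif of the pathway. RefSeq promoter windows (GRCh38.p14), each holding 250 bases before and 50 after an annotated start, were searched on both strands for GGG followed by any 2 bases and then TTTCC, a form of the kappaB element that NF-kB dimers bind. The letters occurred in 671 of 35116 windows (1.91%) and in 635 of 27305 genes (2.33%). Among the members, 8 genes had a window and 7 of these had a match, in 8 of their 12 windows. RELA had no match in its 2 windows. RELB and NFKBIE were not in the table. A match is a description of the letters and not a site shown to be bound. The members were named as genes of this pathway, so their count of matches is no test. Stretches around the matches, all before the start, are shown because elements of this kind are the route by which NF-kB is known to reach its feedback genes. They are written from 5′ to 3′ on the strand of the gene, with the match in capitals, in its reverse complement where it lay on the other strand.
NFKB1: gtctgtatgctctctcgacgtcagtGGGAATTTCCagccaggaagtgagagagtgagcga
NFKB2, entry 2: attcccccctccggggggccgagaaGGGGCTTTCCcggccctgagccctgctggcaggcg
NFKB2, entry 3: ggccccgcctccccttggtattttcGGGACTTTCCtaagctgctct
NFKBIA: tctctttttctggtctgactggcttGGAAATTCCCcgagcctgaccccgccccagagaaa
TNFAIP3: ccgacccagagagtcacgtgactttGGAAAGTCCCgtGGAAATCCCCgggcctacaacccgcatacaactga
BIRC3: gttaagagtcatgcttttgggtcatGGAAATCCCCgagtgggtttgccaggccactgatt
CXCL1: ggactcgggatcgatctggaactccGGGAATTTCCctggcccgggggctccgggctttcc
CXCL2: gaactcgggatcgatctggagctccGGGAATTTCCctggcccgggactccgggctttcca

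On GRCh38.p14 the stretches lie at chr4:102501285-102501344 on the plus strand for NFKB1, chr10:102394475-102394534 and chr10:102395659-102395704 on the plus strand for NFKB2, and chr14:35404796-35404855 on the minus strand for NFKBIA. That of TNFAIP3 lies at chr6:137867167-137867238 on the plus strand and that of BIRC3 at chr11:102317260-102317319 on the plus strand. CXCL1 lies at chr4:73869289-73869348 on the plus strand and CXCL2, its close paralog, at chr4:74099239-74099298 on the minus strand. The stretches of CXCL1 and CXCL2 were identical at 49 of 60 positions set side by side without gaps, and their matches began at -79 and -78, where -1 is the base before the start. TNFAIP3 had 2 matches, beginning at -67 and -55. The match of BIRC3, at -199, lay farthest from the start, and that of NFKB2 entry 3, at -21, nearest.

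**Figure D1:**
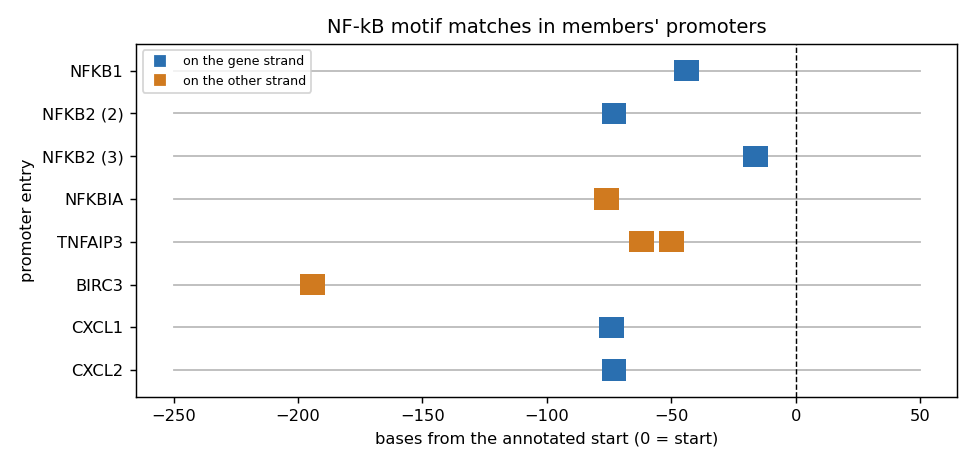
Position of each 10-base match to the kappaB motif in the members' promoter windows. The horizontal axis is the distance in bases from the annotated start, each row is a window with a match, and the colour gives the strand. Matches of CXCL1 and CXCL2 begin at -79 and -78, and TNFAIP3 has 2.

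The intensities below were brought to a common 75th percentile in the 3 libraries, and a probe counted as measured where it reached the floor of its library (378 in the vector library, 382 in the DDX3-labelled library and 411 in the DDX3+YAPsi-labelled library). Of the 12 member probes, 7 reached the floor in all libraries, with 1 probe for each of 7 genes, and 5 lay below it in all. Because a probe's brightness depends on its sequence, levels were compared only within a probe. Values are given in the order vector, labelled DDX3, labelled DDX3+YAPsi.

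Of the 4 subunit genes, 3 were measured. RELA, the subunit with the main transactivation domain of the classical dimer (probe PH_hs_0043883), had scaled intensities of 12596, 13964 and 16769. It was lowest in the vector library and highest in the DDX3+YAPsi-labelled library, with a log2 difference of 0.15 for the DDX3 difference, 0.26 for the knockdown difference and 0.41 (1.33-fold) for the combined difference. RELB, the subunit of the noncanonical arm (PH_hs_0032608), had 582, 763 and 799. Its step lay between the vector library and both libraries labelled with DDX3, at 0.39 for the DDX3 difference and 0.46 (1.37-fold) for the combined difference. The libraries labelled with DDX3 differed by 0.07. NFKB1, whose product is cut to the DNA-binding partner of RELA (PH_hs_0022751), had 3978, 3963 and 3762. This was the narrowest range among the measured member probes, 0.08 on the log2 scale.

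NFKB2, the precursor that the noncanonical arm processes, stayed below the floor with both probes. Probe PH_hs_0027671 had 372, 353 and 347, just under the floor, and probe PH_hs_0048248 had 104, 129 and 84.8. No fold is given for them. REL, the remaining subunit gene and not one of the 10, had 298, 571 and 390. It reached the floor in the DDX3-labelled library alone, on 1 probe. Its value there was 1.51 times the floor of the vector library and 1.39 times that of the DDX3+YAPsi-labelled library.

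Neither measured inhibitor gene differed in the way the RELA and RELB probes did. NFKBIA, the IkB that NF-kB induces and that captures it again (PH_hs_0004662), had 53206, 44497 and 54137. The library labelled DDX3 was the low one, with -0.26 against the vector library (1.20-fold lower), and the DDX3+YAPsi-labelled library was 1.22-fold above it (0.28), back at the vector level to within 0.03. NFKBIE, a related inhibitor (PH_hs_0026336), had 2225, 2400 and 2166. Here the DDX3-labelled library was the high one, at 0.11 against vector, followed by -0.15 for the knockdown difference. Both patterns turn at the DDX3-labelled library, which enters both the DDX3 and the knockdown difference.

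TNFAIP3 encodes an enzyme that edits ubiquitin chains and shuts off signalling upstream of IkB kinase (PH_hs_0012275). It had 1102, 1090 and 1289, nearly level between the first 2 libraries (-0.02) and 0.24 higher in the DDX3+YAPsi-labelled library than in the DDX3-labelled library. BIRC3, a ubiquitin ligase of the tumour necrosis factor receptor complex (PH_hs_0007351), had 133, 355 and 216. All 3 values lay below the floor, the middle one close to it. BIRC3 entered the comparison when the floor was lowered to the 25th percentile (95.2, 103 and 112) or left out. Its value was then 1.42 for the DDX3 difference, -0.72 for the knockdown difference and 0.70 for the combined difference, all from intensities under the main floor.

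CXCL1, a chemokine for neutrophils, had 824, 958 and 1022 with the brighter probe (PH_hs_0028689). The order was the same as for RELA and RELB, with 0.22 for the DDX3 difference, 0.09 for the knockdown difference and 0.31 (1.24-fold) for the combined difference. The second probe (PH_hs_0030857) had 278, 295 and 376, below the floor throughout. CXCL2, which acts on the same receptor (PH_hs_0043263), had 296, 353 and 376, also below the floor. The floors rose in the same order as the values of these dim probes (378, 382 and 411), so no order is read from them. Since the annotation gives no probe sequence and the genes are near copies, cross-hybridisation between CXCL1 and CXCL2 was not tested.

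**Figure D2:**
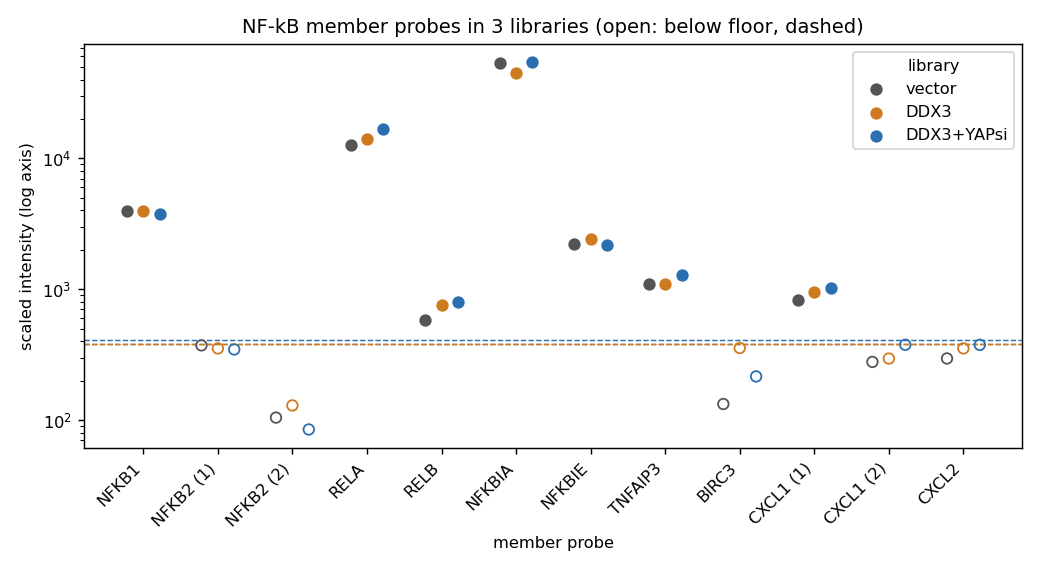
Scaled intensity (log axis) of each of the 12 member probes in the 3 libraries, 1 point per library. Filled points reach the library's floor (dashed lines at 378, 382 and 411) and open points do not. The probes of NFKB2, BIRC3 and CXCL2 and the dimmer probe of CXCL1 are open in every library, and BIRC3 spreads from 133 to 355.

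No measured member was at least 2-fold or even 1.5-fold apart in any comparison. For the DDX3 difference, 0 of 7 members passed 2-fold, where 0.551% of all 15435 measured probes did in either direction, and 0 passed 1.5-fold, where 4.94% of all did. For the knockdown difference, 0 of 7 passed either limit beside 0.494% and 6.36% of 15378 probes. For the combined difference it was 0 of 7 beside 0.812% and 8.2% of 15394 probes. Counts of 0 of 7 are near these shares and are no result particular to NF-kB genes.

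The members also lay inside the bulk of the array in size. The range from the 2.5th to the 97.5th percentile of all measured probes was -0.58 to 0.59 for the DDX3 difference, -0.62 to 0.61 for the knockdown difference and -0.66 to 0.69 for the combined difference, and each of the 7 members lay inside it in all 3 comparisons. For RELB in the DDX3 difference, 15.8% of all measured probes were at least as far from 0, and for RELA in the combined difference 21.2% were. For NFKBIA the shares were 33.7% in the DDX3 difference and 38.6% in the knockdown difference. The median absolute difference of the members was 0.15 for the DDX3 difference, beside 0.18 over all measured probes, 0.15 beside 0.22 for the knockdown difference, and 0.23 beside 0.23 for the combined difference.

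The array repeats some genes with a second probe, which gives the only measure of error in the table. Among 2141 genes with exactly 2 measured probes in the DDX3 difference, the differences of those probes were a median of 0.23 apart. The median gap was 0.21 over 2101 genes for the knockdown difference and 0.26 over 2084 genes for the combined difference. For the DDX3 difference, 5 of the 7 members were nearer to 0 than that median gap, RELB (0.39) and NFKBIA (-0.26) were farther, and none was beyond the 90th percentile of the gap, 0.58. In the knockdown difference NFKBIA (0.28), RELA (0.26) and TNFAIP3 (0.24) were beyond the median gap. In the combined difference RELB (0.46), RELA (0.41) and CXCL1 (0.31) were. None passed the 90th percentile of the gap there, 0.55 and 0.66. The share of all measured probes beyond these gaps was not taken, so the counts are not read as particular to the members. Over all measured probes the median absolute difference was 0.18 beside the median gap of 0.23 for the DDX3 difference. It was 0.22 beside 0.21 for the knockdown difference and 0.23 beside 0.26 for the combined difference. A gap holds the error of 2 probes and is thus wider than that of 1. The standard deviation per probe from these gaps was 0.26, 0.24 and 0.29 for the DDX3, knockdown and combined differences. Both measures hold probe error only and no difference between cultures.

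**Figure D3:**
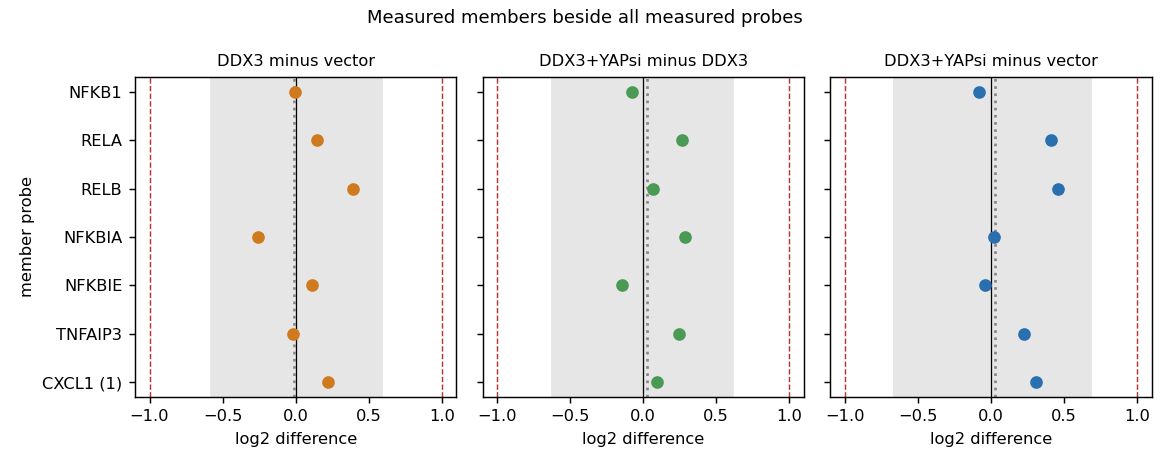
Log2 difference of the 7 measured member probes in each comparison (points). The grey band spans the 2.5th to 97.5th percentile of all measured probes, the dotted line is their median and the red dashed lines mark 2-fold. Every member lies inside the band.

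In direction, 4 of 7 measured members lay above 0 for the DDX3 difference with a median of 0.11, beside 48.2% of all measured probes and a median of -0.01. For the knockdown difference it was 5 of 7 and 0.09, beside 53.2% and 0.03. For the combined difference it was 5 of 7 and 0.23, beside 53.3% and 0.03. The last comparison is the sum of the other differences on the log2 scale and shares a library with each, so it adds no independent value. Highest in the DDX3+YAPsi-labelled library were 5 of the 7, with NFKB1 highest in the vector library and NFKBIE in the DDX3-labelled library. The same count was not taken over all probes, so it is not read as particular to these genes. After scaling, the median over all probes, dim ones included, was 0.09 for the knockdown difference and 0.14 for the combined difference.

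These directions depend on the scaling. The library labelled DDX3+YAPsi was the dimmest as deposited, and without scaling the median log2 difference over all probes was -0.16 for the DDX3 difference, -0.45 for the knockdown difference and -0.60 for the combined difference. Unscaled, all 7 members were below 0 in both comparisons of the DDX3+YAPsi-labelled library, RELA at -0.33 and RELB at -0.28 against vector, which is less far below 0 than the median of all probes. With each library centred on its median, RELA was at 0.29 and RELB at 0.34 in that comparison, whereas NFKBIA turned from 0.03 to -0.09. In the knockdown difference, the small values of RELB and CXCL1 turned to -0.04 and -0.01 with that centring. In the DDX3 difference, RELB stayed between 0.20 and 0.40 and NFKBIA between -0.45 and -0.23 over the 5 scalings, unscaled values included.

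**Figure D4:**
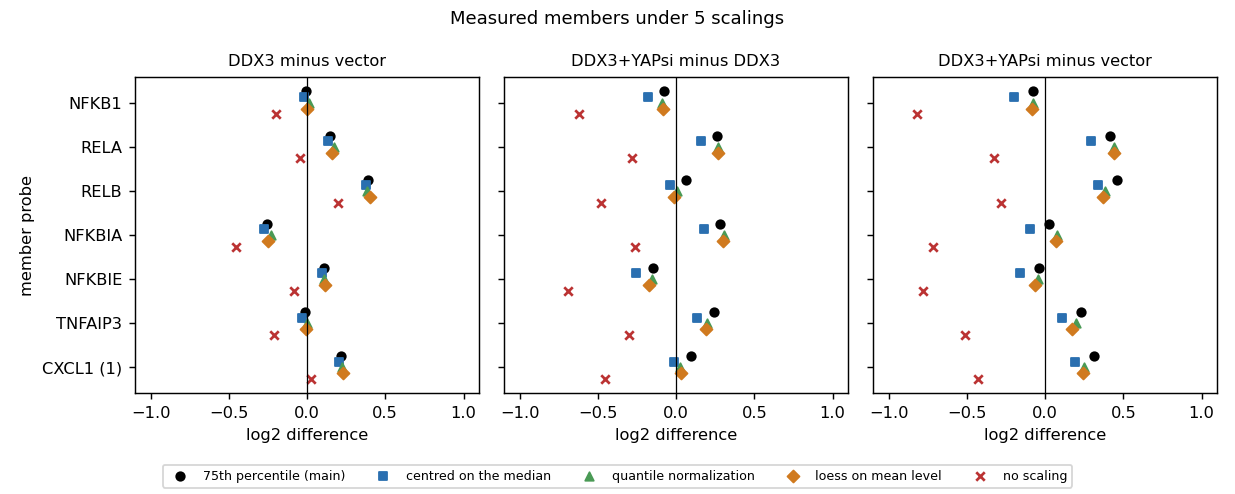
Log2 difference of the 7 measured member probes in each comparison under 5 scalings (symbols). RELB lies above 0 and NFKBIA below 0 under all of them for the DDX3 difference, while unscaled values (crosses) lie below 0 for all 7 in both comparisons of the DDX3+YAPsi-labelled library.

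A wider list of 93 NF-kB pathway genes from textbook knowledge, the 10 members included, had 92 on the array and 57 measured in each comparison. Its median was -0.01 for the DDX3 difference, 0.04 for the knockdown difference and 0.03 for the combined difference, beside -0.01, 0.02 and 0.02 over all measured genes. No gene of it passed 2-fold as the mean of its probes, where 0.335%, 0.275% and 0.477% of all measured genes did. Of the 2 CCL5 probes, 1 passed it alone, at 2.13 for the DDX3 difference and 1.40 for the combined difference. The other stood at -0.63 and -0.21. At 1.5-fold, 2 of 57 genes passed for the DDX3 difference (beside 3.59% of all genes), both upward, 1 passed upward for the knockdown difference (4.93%), and 2 passed upward and 1 downward for the combined difference (6.33%). These were CCL5 and JUNB for the first, BCL3 for the second, and BCL3, CCL5 and BCL2L1 for the last. The upward calls of CCL5 and JUNB for the DDX3 difference held with median centring, quantile normalization and loess, and not unscaled. That of CCL5 is a mean over probes of opposite sign. The upward call of the knockdown difference and both of the combined difference were lost under each of the 4 other scalings, and quantile normalization called CSF3 upward instead for the combined difference.

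Among the IkB family all 6 genes were measured. BCL3, a nuclear member that works as a coactivator, had 554, 571 and 875. It was 1.53-fold higher in the DDX3+YAPsi-labelled library than in the DDX3-labelled library (0.62) and 1.58-fold higher than in the vector library (0.66), on 1 probe. With median centring, quantile normalization and loess these values were 0.51 to 0.55 and 0.54 to 0.58, all under the 1.5-fold limit of 0.585, and unscaled they were 0.07 and -0.08. NFKBIB, a further cytoplasmic inhibitor, had -0.22 for the DDX3 difference and 0.38 for the knockdown difference, the same order of libraries as NFKBIA. NFKBIZ, a nuclear inhibitor-like protein, had 0.12 and -0.09 and, like NFKBIE, was highest in the DDX3-labelled library.

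Among the IkB kinases, their relatives, and the kinases upstream with their partners, values were mixed. Of 8 measured genes of this group, the kinase partners TAB1 and TAB2 included, 3 lay above 0 for the DDX3 difference (37.5% beside 48.8% of all genes). For the knockdown difference it was 4 (50% beside 52.6%) and for the combined difference 2 (25% beside 52.1%). MAP3K14, the kinase that starts the noncanonical arm, was at 0.20 for the DDX3 difference and 0.51 for the combined difference. TAB1, a partner of the kinase TAK1, was at -0.27 for the DDX3 difference and 0.41 for the knockdown difference. Of 14 measured receptors and adaptors, 3 lay above 0 for the DDX3 difference, a share of 21.4% beside 48.8% of all genes, with a median of -0.09. For the knockdown and the combined difference it was 6 of 14 each, 42.9% beside 52.6% and 52.1% of all genes. TRADD, the adaptor of the tumour necrosis factor receptor, was lowest among them at -0.38 and stood at 0.38 for the knockdown difference. TRAF3, which restrains the noncanonical arm, ran the other way at 0.33 and -0.45. Of 11 measured ubiquitin regulators, 6 lay above 0 for the DDX3 difference (54.5%), 7 for the knockdown difference (63.6%) and 6 for the combined difference (54.5%). The shares of all genes were 48.8%, 52.6% and 52.1%. BIRC2, the paralog of BIRC3, was lowest among them at -0.49 in the combined difference.

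Downstream, most chemokine and cytokine genes were too dim to compare, with 5 of 21 measured. CSF3, a growth factor for neutrophils, had 67013, 87921 and 96814 on 1 probe, 0.39 for the DDX3 difference and 0.53 for the combined difference. IL32 was at 0.05 and 0.39. CCL5, a T cell chemokine, had the largest gene value of the list, 0.75 for the DDX3 difference. But its 2 probes stood at 2.13 and -0.63, so the mean describes neither. The first probe (PH_hs_0026492) had 1641, 7204 and 4345. The second (PH_hs_0034077) had 607, 392 and 527, and its value in the DDX3-labelled library lay just above the floor of that library, 382. Among 10 measured other targets, JUNB, an AP-1 subunit, was 1.52-fold higher in the DDX3-labelled library than in the vector library (0.61) and 0.41 unscaled. BCL2L1, which encodes an inhibitor of apoptosis, was 1.55-fold lower in the DDX3+YAPsi-labelled library than in the vector library (-0.64), and ICAM1, an adhesion molecule, was at 0.56 there. JUNB, BCL2L1 and ICAM1 each rest on 1 probe.

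**Figure D5:**
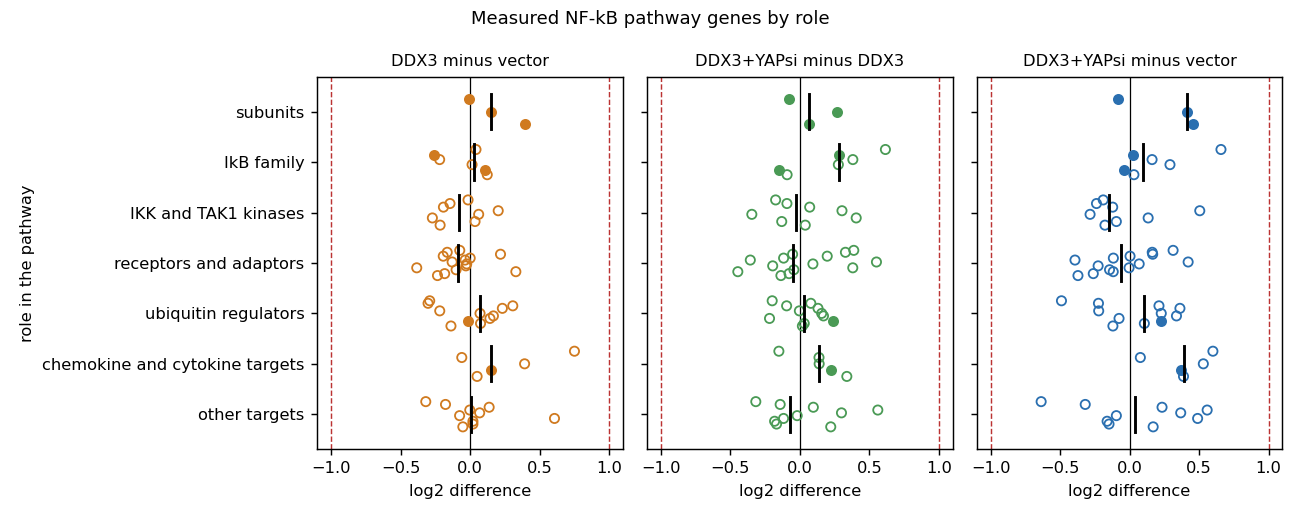
Log2 difference of each measured NF-kB pathway gene (mean over its probes) by role, in each comparison. Filled points are members, open points other genes of the list, black bars the median of a role and red dashed lines 2-fold. Points of every role lie on both sides of 0 except the chemokines and cytokines in the combined difference, and none reaches 2-fold.

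Genes with the promoter match had medians close to those of all genes and slightly below them in each comparison. Of the genes with such a match other than the members, 217 were measured in the DDX3 difference, with a median of -0.02 and 43.8% above 0, beside -0.01 and 48.8% over all measured genes. For the knockdown difference the median was -0.01 over 218 genes with 48.6% above 0, beside 0.02 and 52.6% over all measured genes. For the combined difference it was -0.01 over 218 genes with 47.2% above 0, beside 0.02 and 52.1%. The part of the motif in these differences was not tested. Among the measured members with a match, NFKBIA lay below 0 and the brighter CXCL1 probe above 0 for the DDX3 difference, with NFKB1 and TNFAIP3 near 0.

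RELB had the widest range over the 3 libraries among the member genes measured in all (0.46), and its order of levels was vector, labelled DDX3, labelled DDX3+YAPsi, the last step being 0.07. By Euclidean distance between log2 values centred on their mean over the 3 libraries, the genes nearest to RELB were CAMTA2 (distance 0.0017), AIM1 (0.0037, the symbol of the platform annotation) and ULBP2 (0.0041). With 3 points such closeness is common, and 257 of 9721 genes lay within 0.1 of RELB.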

How the data were processed

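The deposited table held probe intensity on a linear scale for 31741 probes and 3 samples, with no missing value. Per the labels, 2 technical replicates stand behind each sample. The sources used here do not give how those were merged, nor any background correction or scaling by the authors. Deposited medians were 469, 414 and 305, so no common level had been set. Each sample was multiplied by a factor (0.806, 0.922 and 1.35) that made its 75th percentile equal to the 3 samples' geometric mean, and log2 was taken. Genes were named from the platform annotation, with older symbols updated through RefSeq where only 1 current symbol fitted. In lists, log2 values of a gene's probes with 1 symbol were averaged.

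A difference was called at 2-fold or, as a second limit, at 1.5-fold, with no p-value, since each group had 1 sample. The small number of arrays limits precision. Named genes were all members, DDX3X and YAP1, per role and comparison up to 3 measured genes with the largest differences, and the 3 genes nearest in pattern to the member with the widest range. The text prints part of these, and names REL (the remaining subunit), dim cytokines and single cell type markers outside that rule, chosen after their values were seen. The members, the lists and the promoter motif were chosen with earlier results of these data known. Alternatives were 4 other scalings, 3 other floors, a pseudocount of 64, and the brightest probe per gene. The scaling and the fold estimates were tested on simulated data. Changes were added there to brighter probes only, so changes near the floor and the other steps were not covered. Python 3.11.15, pandas 2.3.3 and statsmodels 0.14.6 were used.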

Additional observations from a re-analysis of the deposited data

How the results depend on the processing

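No paired analysis was possible because each group holds 1 sample. The medians of the 7 measured members were small, and several turned or moved. Without scaling they were -0.086 for the DDX3 difference, -0.45 for the knockdown difference and -0.51 for the combined difference, which follows from the shift of all probes. Centred on the median, the knockdown difference was -0.013 and the combined difference 0.11. With the floor at the 75th percentile, which left 3 members, the medians were -0.0054, 0.26 and 0.025. The count of members past 1.5-fold, 0 in each comparison, became 2 (the knockdown difference) and 3 (the combined difference) without scaling. With the floor at the 25th percentile it was 1 in each comparison, BIRC3, and with no floor 1, 2 (BIRC3 and the dimmer NFKB2 probe) and 1. BIRC3 for the DDX3 difference also made the count past 2-fold 1 under both of these floors. The share of all probes past these limits was not taken under these settings, so the counts are not read as particular to the members. Unscaled, 24 of 57 measured pathway genes passed 1.5-fold downward for the knockdown difference and 33 for the combined difference. The pathway list stayed near 0 apart from unscaled values. For the DDX3 difference its median of -0.01 became 0.0031 with quantile normalization, 0.014 and 0.020 with the 25th percentile floor and no floor, 0.031 with the brightest probe and -0.20 without scaling. For the knockdown difference it became -0.066 with median centring, -0.0083 with loess and -0.51 without scaling, and for the combined difference -0.088 with median centring and -0.71 without scaling. Quantile normalization, loess and the pseudocount left every count of members past either limit at 0. Intensities near the floor limit RELB most, the dimmest measured probe beside its floor.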

Other observations

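Of 21 chemokine and cytokine genes, 16 stayed below the floor in all libraries, with scaled intensities from 28.0 to 376, and belong to no comparison. Of these, 5 are given as examples, chosen after their values were seen, and no order is read from them. IL6, an inflammatory cytokine, read 39.8, 41.8 and 119 (scaled intensity) in the vector, DDX3-labelled and DDX3+YAPsi-labelled libraries. TNF, the cytokine that activates the pathway from outside the cell, had 78.0, 136 and 142. CXCL8, the main human neutrophil chemokine, had 332, 306 and 316, CXCL3 had 219, 207 and 222, and CSF2, a growth factor of myeloid cells, had 44.9, 28.0 and 42.6. The 2 CCL5 probes, both measured, gave opposite signs in both comparisons with the vector library. They stood at 2.13 and -0.63 for the DDX3 difference and 1.40 and -0.21 for the combined difference. The probe with the negative values was close to the floor in the DDX3-labelled library (392 beside a floor of 382).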
